A study of Mus musculus with 15 samples.

Results

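The genes described here are the collagen chains, the laminin chains and 7 further proteins of basement membranes and the matrix around them, measured by RNA sequencing in punches of the mouse suprachiasmatic nuclei (SCN), small hypothalamic nuclei where the master circadian clock of mammals lies. Members were chosen by gene symbol, as every collagen alpha chain, every laminin alpha, beta or gamma chain, and Nid1, Nid2, Hspg2, Fn1, Sparc, Agrn and Lum. A mean of at least 0.5 CPM (a gene's count scaled to its library's total) across the 15 libraries was also required. Of 24419 genes in the count table, 62 carried such a name and 60 passed that minimum: 42 collagen chains, 11 laminin chains and the 7 others. Just below it lay Col10a1 at 0.0733 CPM and Col17a1 at 0.294 CPM, and just above it Col13a1 at 0.703 CPM and Lum at 0.964 CPM. All 60 members had counts in every library and passed the filter on low counts, so all were tested.

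Basement membranes are thin sheets of matrix on which endothelial, epithelial and some other cells rest. Their core is a network of collagen IV and a network of laminin, each laminin being a trimer of an alpha, a beta and a gamma chain, joined by nidogens and heparan sulfate proteoglycans. In the brain they surround blood vessels and line the surface beneath the pia, and fibrillar collagens lie mainly in the meninges and the walls of larger vessels. Some collagens outside these sheets, among them transmembrane chains, are made by neurons.

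The groups were REV-ERB double knockout (DKO) mice, which lack the nuclear receptors REV-ERB alpha and beta, and control mice, all of the C57BL/6 background and 8 to 12 weeks old. Both receptors repress transcription and belong to the molecular clock. Tissue was collected at circadian time (CT) 16, in the subjective night, from 4 DKO and 5 control pools, and at CT4, in the subjective day, from 3 DKO and 3 control pools, each pool holding 2 to 4 punches. How the receptors were deleted, in which cells, and the exact genotype of the controls are not given in the sources at hand. Nor is it stated which mice entered which pool, so the p-values reflect variation among pools.

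Libraries held between 32580803 and 68757624 counts. The targeted genes were not lower in DKO libraries: Nr1d1 (REV-ERB alpha) had 241 to 378 CPM in DKO CT16, 135 to 150.3 CPM in control CT16, 226 to 252 CPM in DKO CT4 and 198 to 282 CPM in control CT4 libraries. Nr1d2 (REV-ERB beta) had 198 to 259 CPM in DKO CT16, 96.7 to 118 CPM in control CT16, 163 to 181 CPM in DKO CT4 and 116 to 130.2 CPM in control CT4 libraries. Without knowing which exons were deleted, counts over whole genes do not check the deletion, and every direction given for DKO rests on the labels. SCN markers were present in every library (Avp at 72.3 to 681 CPM, Vip at 19.1 to 145 CPM), with a summed level of 1057 to 1664 CPM in DKO CT16, 828 to 1492 CPM in control CT16, 1118 to 1179 CPM in DKO CT4 and 1377 to 1538 CPM in control CT4 libraries. DKO CT16 replicate 4 stood apart in myelin, with 20073 CPM summed over 12 markers, against 2967 to 9761 CPM in the other 14 libraries. DKO CT16 replicate 3 stood apart among the DKO CT16 libraries in several members, given below. Both, with control CT4 replicate 1, were left out together as an alternative. Markers of neighbouring hypothalamic nuclei summed to 960 CPM in control CT4 replicate 1, against 536 and 686 CPM in the other control CT4 libraries. Control CT16 replicate 5, high in several members (below), was kept in that alternative.

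The 60 members took 0.37% to 0.431% of a library's counts. Sparc alone, a secreted collagen-binding glycoprotein, made up 53.8% to 60.1% of those counts. Per kilobase of exonic length, Sparc averaged 853 CPM per kb and ranked number 7 among the 16910 genes tested. Agrn, the heparan sulfate proteoglycan agrin that clusters acetylcholine receptors at the neuromuscular junction, followed at 52.3 CPM per kb. All other members lay at 25 CPM per kb or below, down to 0.139 CPM per kb for Col6a6.

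Among collagens the highest levels per length were those of Col4a2 (25 CPM per kb), Col25a1 (24.1 CPM per kb), Col16a1 (14.2 CPM per kb), Col9a2 (13.8 CPM per kb) and Col4a1 (12.4 CPM per kb). Col4a1 and Col4a2 form the common collagen IV trimer of vessels, while Col25a1 is a transmembrane collagen of neurons. Col16a1 and Col9a2 belong to the fibril-associated collagens with interrupted helices (FACIT). The fibrillar collagens of connective tissue were much lower, with 5.6 CPM per kb for Col1a2, 1.14 CPM per kb for Col1a1 and 0.246 CPM per kb for Col3a1. Among fibrillar chains Col11a2 and Col11a1 stood highest at 8.05 and 7.8 CPM per kb, followed by Col1a2 and by Col5a3 at 5.59 CPM per kb.

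Laminin chains were led by Lamb2 (11.1 CPM per kb) and Lamc1 (6.77 CPM per kb). The alpha chains, which carry the receptor-binding end of the trimer, were lower and closer together. Lama2 stood at 2.44, Lama5 at 2.27, Lama1 at 1.76, Lama3 at 0.778 and Lama4 at 0.73 CPM per kb. The ranges of Lama2, Lama5 and Lama1 over libraries overlapped. Lamb3, a beta chain of epithelial laminin, was at 1.07 CPM per kb.

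**Figure D1:**
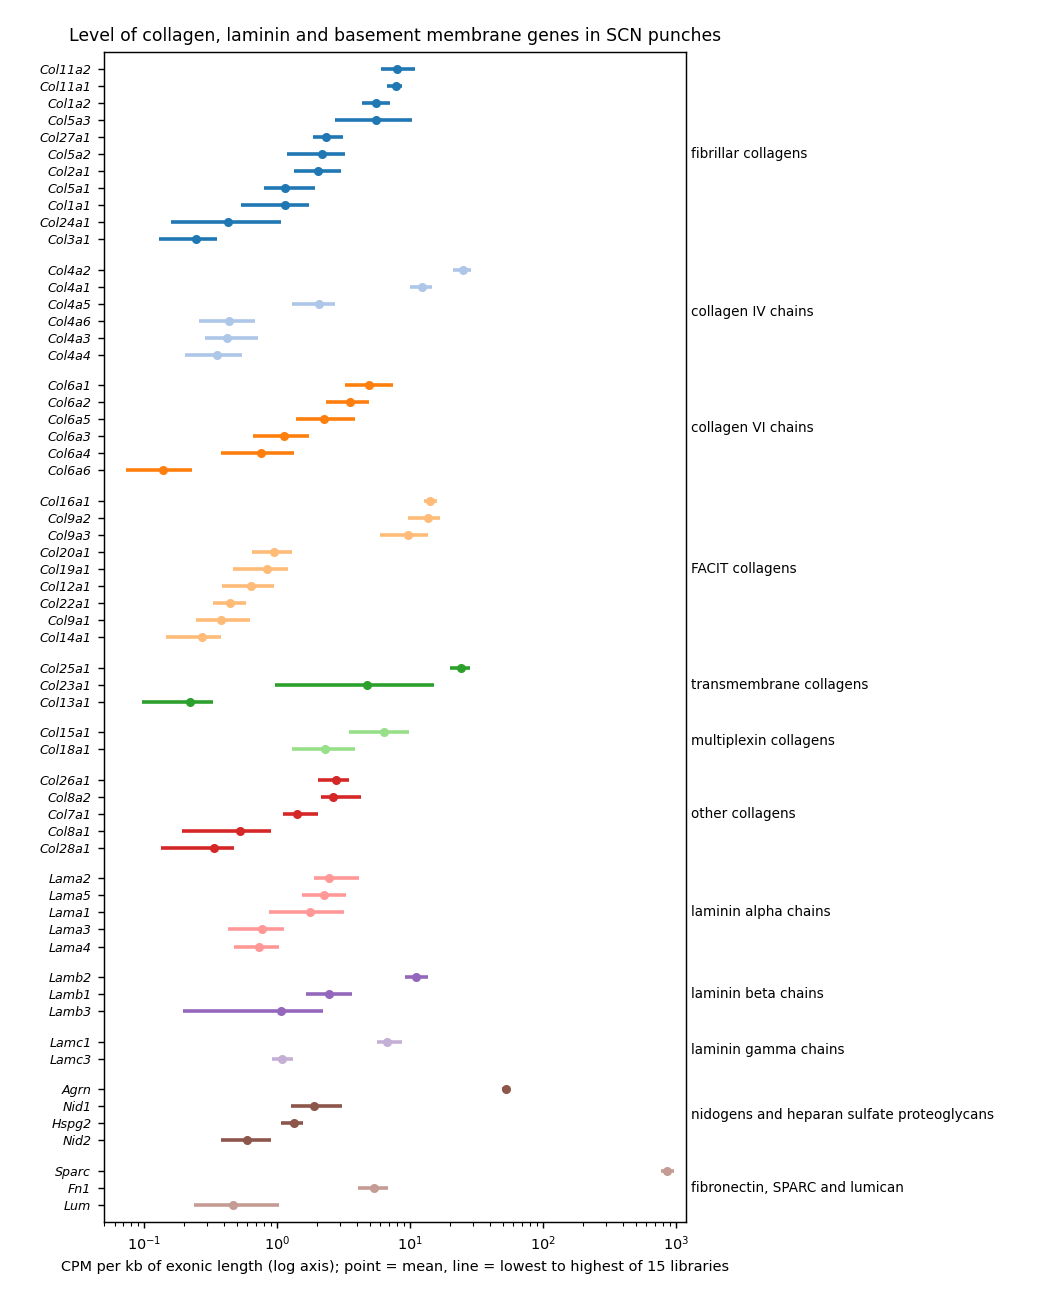
Level of 59 of the 60 members in CPM per kb of exonic length on a log axis, grouped by role; points are means over the 15 libraries and lines run from the lowest to the highest library. Sparc at 853 CPM per kb lies far above Agrn at 52.3 CPM per kb, and Lamb3 and Col23a1 have long lines.

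Members differed greatly in how steady they were. The highest library exceeded the lowest by 1.15-fold for Agrn, 1.25-fold for Col16a1 and 1.25-fold for Sparc. The same ratio was 15.6-fold for the transmembrane collagen Col23a1 and 11.2-fold for Lamb3. Col23a1 had 7.03, 5.51, 34.8 and 9.95 CPM in DKO CT16 libraries and 7.91, 26.2, 11.2, 9.72 and 85.9 CPM in control CT16 libraries. It had 34.0, 46.5 and 60.6 CPM in DKO CT4 libraries and 39.7, 11.8 and 11.6 CPM in control CT4 libraries. Libraries of the same group thus differed several-fold, and no test of Col23a1 passed.

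The most abundant members showed little of this. Sparc had 2077, 2079.8, 2485 and 2206 CPM in DKO CT16 libraries, 2046, 2370.1, 2209, 2051 and 2068 CPM in control CT16 libraries, 2380.1, 2553 and 2345 CPM in DKO CT4 libraries and 2277, 2365 and 2286 CPM in control CT4 libraries. Its groups overlapped between genotypes at both times. Agrn had 363 to 379.8 CPM in DKO CT16, 374 to 399 CPM in control CT16, 370.2 to 406 CPM in DKO CT4 and 408 to 419 CPM in control CT4 libraries. Col4a2 had 144 to 184 CPM in DKO CT16, 135 to 160.1 CPM in control CT16, 156 to 168 CPM in DKO CT4 and 150.4 to 183 CPM in control CT4 libraries. Col25a1 lay between 151 and 208 CPM in DKO CT16, 189.5 and 212 CPM in control CT16, 151 and 156 CPM in DKO CT4 and 154 and 200.2 CPM in control CT4 libraries. All of these ranges overlapped between genotypes except those of Agrn at CT4, and none of these members was called in any comparison, alternatives aside. Over both times Col25a1 passed as lower in DKO under DESeq2 (-0.22, adjusted p = 0.043) and limma voom (-0.19, 0.0467). It also passed there without DKO CT16 replicate 1 (-0.27, edgeR adjusted p = 0.0105), as it did at CT16 (-0.34, 0.0133). Without the 3 libraries left out together, Col25a1 passed at CT4 as lower in DKO (-0.29, edgeR adjusted p = 0.0334).

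Ratios of chains that assemble together are given for collagen IV and collagen I, and differed in spread. Col4a1 and Col4a2 start 3 bases apart and run in opposite directions on chromosome 8. Their ratio per length, Col4a2 over Col4a1, stayed between 1.8 and 2.16 in all 15 libraries. Col1a2 over Col1a1, the chains of collagen I, ranged more widely. It lay between 5.03 and 12.7 in DKO CT16, 5.58 and 7.64 in control CT16, 2.96 and 3.4 in DKO CT4 and 3.1 and 4.97 in control CT4 libraries. Within each genotype the CT16 ratios lay above all CT4 ratios, a difference that was not tested. A trimer of collagen I holds more of the Col1a1 chain than of the Col1a2 chain, so these ratios of RNA are not those of the protein.

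The comparison of DKO with control at CT16 asks how loss of both receptors alters expression in the subjective night. Of the 60 members 5 changed: 3 rose (Col5a3, Col5a1 and Lama5) and 2 fell (Col18a1 and Col12a1), at an adjusted p under 0.05 (edgeR quasi-likelihood test, Benjamini-Hochberg over 16910 genes). Over all genes tested 4.66% were called in this comparison, 2.83% higher and 1.83% lower. Whether the members' share differs from that background was not tested. The median log2 fold change was -0.03 over the members and 0.00 over all genes. The DKO and control libraries did not overlap for 4 members, beside 6.97% of all genes. Of these, 2 lay above (all genes 4.03%) and 2 below (all genes 2.94%). In bulk tissue, fewer cells of a type and less RNA per cell cannot be told apart.

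Col5a3 showed the largest difference. It encodes a chain of collagen V, a fibrillar collagen that joins collagen I fibrils and sets their diameter. It lies on chromosome 9 from 20770050 to 20815034 on the minus strand (mm10). Col5a3 had 46.1, 51.9, 44.2 and 63.3 CPM in the 4 DKO CT16 libraries, against 16.6, 18.9, 17.4, 21.6 and 21.6 CPM in the 5 control CT16 libraries. Every DKO library was thus above every control library by a wide margin. The means were 51.4 ± 8.58 CPM in DKO and 19.2 ± 2.32 CPM in control pools (SD, n = 4 and 5), a log2 fold change of 1.41 ± 0.14 (SE, edgeR adjusted p = 3.69e-05), or 2.66-fold. The call held under all 24 alternatives, with log2 fold changes of 1.30 to 1.48.

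The partner chain Col5a1, on chromosome 2, rose less. It had 10.9, 12.1, 8.53 and 16.1 CPM in DKO CT16 libraries and 8.63, 6.70, 7.31, 8.32 and 7.25 CPM in control CT16 libraries. The lowest DKO library, replicate 3, fell just below the highest control library, so the groups touched. The log2 fold change was 0.64 ± 0.14 (edgeR adjusted p = 0.0155), and 0.46 (adjusted p = 0.048) without DKO CT16 replicate 4, its highest library. It did not pass without replicate 2 (adjusted p = 0.0522) or with only the compared groups fitted (adjusted p = 0.0736). Col5a2, the remaining chain of collagen V, had a log2 fold change of 0.34 ± 0.20 (adjusted p = 0.37) and did not pass. The ratio of Col5a3 to Col5a1 per length was 5.42 to 7.15 in DKO CT16 and 2.66 to 4.12 in control CT16 libraries, so these ranges did not overlap.

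Lama5, the laminin alpha chain found in mature vessels and many epithelia, rose modestly. It had 24.5, 24.7, 26.8 and 32.4 CPM in DKO CT16 libraries against 20.5, 18.6, 17.5, 19.9 and 21.8 CPM in control CT16 libraries. All DKO values lay above all control values. The log2 fold change was 0.46 ± 0.10 (edgeR adjusted p = 0.0155). Without DKO CT16 replicate 4, the library highest in myelin markers, it was 0.36 (adjusted p = 0.0515), and without the 3 libraries named above 0.32 (adjusted p = 0.136). Lama4, an alpha chain of endothelial basement membranes, stood at -0.23 ± 0.17 (adjusted p = 0.484). The ratio of Lama5 to Lama4 per length was 3.19 to 4.54 in DKO CT16 and 2.14 to 2.57 in control CT16 libraries.

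Col18a1 and Col12a1 went the other way. Col18a1 encodes the proteoglycan collagen XVIII of vascular and epithelial basement membranes, whose end fragment is endostatin. It had 12.1, 9.09, 10.3 and 7.46 CPM in DKO CT16 libraries and 13.8, 12.7, 15.8, 19.1 and 22.4 CPM in control CT16 libraries. Every DKO library lay below every control library, with a log2 fold change of -0.78 ± 0.18 (edgeR adjusted p = 0.0218). It did not pass without DKO CT16 replicate 2 (adjusted p = 0.0826), without DKO CT16 replicate 4 (0.0752), without control CT16 replicate 4 (0.0581), without the 3 libraries (0.197) or with only the compared groups fitted (0.0693).

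Col12a1, a FACIT collagen that binds the surface of collagen I fibrils, had 7.40, 5.47, 6.58 and 4.52 CPM in DKO CT16 libraries and 7.97, 7.81, 10.2, 11.2 and 10.2 CPM in control CT16 libraries. The groups did not overlap, although the highest DKO value was close to the lowest control values. The log2 fold change was -0.66 ± 0.18 (edgeR adjusted p = 0.0463), near the threshold, and the call was lost in 12 of 24 alternatives, with adjusted p of up to 0.259. Markers of neighbouring hypothalamic nuclei were also low in 3 of 4 DKO CT16 libraries. They summed to 516 to 956 CPM in DKO CT16 libraries, against 861 to 1213 CPM in control CT16 libraries. Their part in these results was not tested.

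Among members that did not pass at CT16, all 6 collagen IV chains had positive log2 fold changes, from 0.07 to 0.22. Col4a1 had 97.7, 93.7, 77.8 and 85.2 CPM in DKO CT16 and 76.3, 66.1, 76.4, 80.6 and 82.9 CPM in control CT16 libraries, at 0.21 ± 0.08 (adjusted p = 0.128). Without DKO CT16 replicate 3, its lowest DKO library, Col4a1 passed at 0.27 (adjusted p = 0.0425) and Col4a2 at 0.24 (adjusted p = 0.0419). Col6a4 and Col6a5, collagen VI chains related to Col6a3, stood at -0.75 ± 0.24 (adjusted p = 0.088) and -0.69 ± 0.22 (adjusted p = 0.0991). Under DESeq2 both passed, with adjusted p of 0.0213 and 0.0086. Col6a5 also passed under limma voom (-0.83, adjusted p = 0.0403). With edgeR it passed without DKO CT16 replicate 3 (-0.95, 0.00795) or without control CT16 replicate 2 (-0.79, 0.0429). Col6a4 passed without control CT16 replicate 1 (-0.88, 0.039). Lamc1, the gamma chain of most laminins, stood at 0.24 ± 0.08 (adjusted p = 0.0974). For Sparc the 95% interval of the log2 fold change ran from -0.08 to 0.16, and for Agrn from -0.12 to 0.03.

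**Figure D2:**
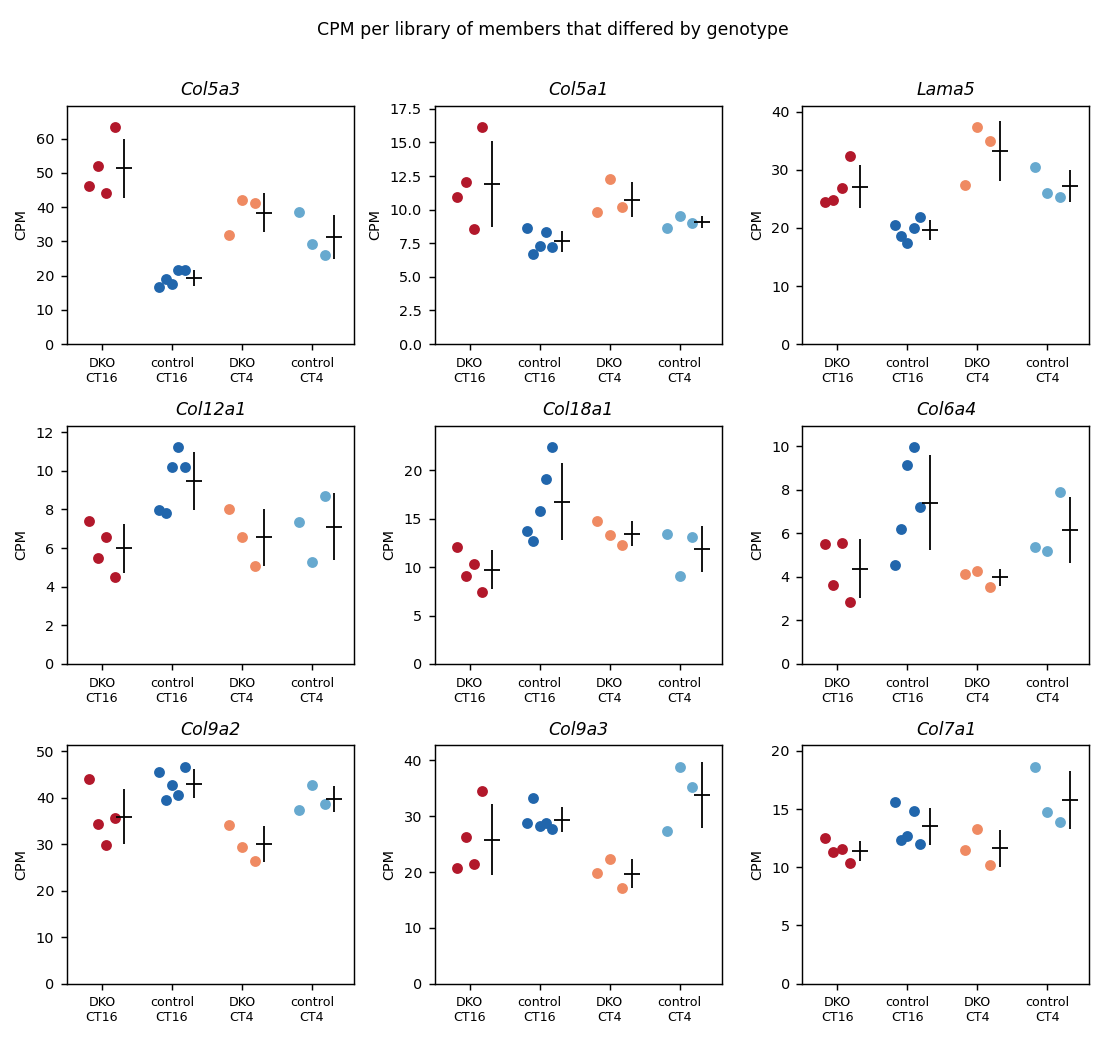
CPM in each library for the 9 members that differed by genotype at CT16, at CT4 or over both times; dots are libraries, and bars show the mean ± SD of each group (n = 4 DKO CT16, 5 control CT16, 3 DKO CT4, 3 control CT4). The 4 DKO CT16 values of Col5a3, 44.2 to 63.3 CPM, lie above all control CT16 values, 16.6 to 21.6 CPM.

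Promoter windows of the 3 members that rose at CT16 are shown so that their letters can be compared. Those of Col7a1, lower over both times (below), and of the Col4a1 and Col4a2 pair, whose starts share the window, are added. Each runs from 250 bases before to 50 bases after a RefSeq gene start (GRCm38.p6) and is written 5′ to 3′ on the gene's strand. Capitals mark AGGTCA (the core of REV-ERB and ROR response elements), CCAAT and GGGCGG (an SP1-type box), each searched on both strands, so that the reverse complement is also in capitals. CACGTG (the canonical E-box) and TTATGNAA (a D-box form) were searched too and are in none of these windows. The windows lie at chr9:20815018-20815317 on the minus strand (Col5a3), chr2:27886175-27886474 on the plus strand (Col5a1), chr2:180225810-180226109 on the minus strand (Lama5), chr9:108953336-108953635 on the plus strand (Col7a1) and chr8:11312777-11313076 on the minus strand (Col4a1).
Col5a3: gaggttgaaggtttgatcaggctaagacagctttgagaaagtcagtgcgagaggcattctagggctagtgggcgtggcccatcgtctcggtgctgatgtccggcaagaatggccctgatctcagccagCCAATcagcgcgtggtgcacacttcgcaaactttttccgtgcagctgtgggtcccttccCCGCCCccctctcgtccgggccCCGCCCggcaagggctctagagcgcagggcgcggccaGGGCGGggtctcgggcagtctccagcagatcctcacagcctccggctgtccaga
Col5a1: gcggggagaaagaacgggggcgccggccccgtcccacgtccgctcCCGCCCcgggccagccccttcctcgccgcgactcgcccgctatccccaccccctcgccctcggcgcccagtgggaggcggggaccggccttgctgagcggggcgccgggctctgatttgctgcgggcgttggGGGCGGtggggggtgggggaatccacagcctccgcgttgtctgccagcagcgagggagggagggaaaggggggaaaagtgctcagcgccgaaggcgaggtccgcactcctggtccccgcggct
Lama5: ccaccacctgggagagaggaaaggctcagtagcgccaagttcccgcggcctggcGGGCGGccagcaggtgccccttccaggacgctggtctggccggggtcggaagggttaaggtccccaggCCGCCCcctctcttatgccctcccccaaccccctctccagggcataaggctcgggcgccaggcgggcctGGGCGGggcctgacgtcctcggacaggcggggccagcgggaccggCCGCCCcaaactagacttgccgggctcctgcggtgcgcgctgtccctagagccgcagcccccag
Col7a1: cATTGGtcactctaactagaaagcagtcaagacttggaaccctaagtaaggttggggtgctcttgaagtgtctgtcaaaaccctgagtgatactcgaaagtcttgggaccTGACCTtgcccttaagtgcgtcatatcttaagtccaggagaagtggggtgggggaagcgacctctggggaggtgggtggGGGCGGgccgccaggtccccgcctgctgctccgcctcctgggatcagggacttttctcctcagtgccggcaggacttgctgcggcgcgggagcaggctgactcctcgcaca
Col4a1: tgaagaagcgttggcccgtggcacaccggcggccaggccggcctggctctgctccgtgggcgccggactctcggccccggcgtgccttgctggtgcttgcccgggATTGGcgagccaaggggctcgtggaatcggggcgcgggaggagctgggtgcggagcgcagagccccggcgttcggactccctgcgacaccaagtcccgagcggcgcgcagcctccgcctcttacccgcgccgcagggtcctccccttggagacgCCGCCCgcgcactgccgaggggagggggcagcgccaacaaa

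The Col5a3, Col5a1 and Lama5 windows hold GGGCGG at 3, 2 and 4 places, and of these 3 windows that of Col5a3 holds CCAAT. The motif AGGTCA is in none of those 3 windows and at 1 place in that of Col7a1. RefSeq windows were found for 42 of the 60 members, 47 windows in all. AGGTCA was in 8 of the 47 (17.0%), beside 16.3% of all 32851 mouse windows. CACGTG was in 0 of the 47, beside 7.15% of all windows, and TTATGNAA in 2, beside 3.38%. GGGCGG was in 30 member windows (63.8%), beside 35.7% of all, and CCAAT in 14 (29.8%), beside 37.4%. A match is a description of letters, not a binding site.

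The same genotype comparison at CT4, in the subjective day, rests on 3 pools a side. Of the 60 members 1 changed, Col9a3, which fell, beside 1.28% of all genes (0.574% higher and 0.71% lower). Col9a3 encodes a chain of collagen IX, a FACIT collagen that coats collagen II fibrils in cartilage. It had 19.8, 22.3 and 17.1 CPM in DKO CT4 libraries against 27.4, 38.8 and 35.2 CPM in control CT4 libraries, with no overlap. The log2 fold change was -0.78 ± 0.18 (edgeR adjusted p = 0.0484). The call was lost when any of 11 of the 15 libraries was left out, with adjusted p of up to 0.219 and log2 fold changes of -0.87 to -0.66. Of its exonic bases 8.05% overlap Tcfl5 on the opposite strand, which averaged 0.0773 CPM.

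Markers of the punched tissue also differed between the CT4 groups. The summed level of 16 SCN markers was 1118 to 1179 CPM in DKO CT4 and 1377 to 1538 CPM in control CT4 libraries, with a median log2 fold change of -0.93 and 15 of 16 negative. That of 18 markers of neighbouring hypothalamic nuclei was 1013 to 1099 CPM in DKO CT4 and 536 to 959.6 CPM in control CT4 libraries, with a median of 0.86. Neither pair of ranges overlapped, although 0 markers of either list passed singly with edgeR, with 11 and 1 at an unadjusted p under 0.05 beside 14.8% of all genes. Their part in the member values at CT4 was not tested.

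Members whose CT4 groups did not overlap numbered 19, with 5 higher and 14 lower in DKO, beside 25.4% of all genes (12.1% higher and 13.3% lower). All 4 nidogens and heparan sulfate proteoglycans were among the 14, although none passed. Nid2, which links laminin to collagen IV, had 2.56, 3.29 and 3.10 CPM in DKO CT4 and 4.38, 4.15 and 3.95 CPM in control CT4 libraries (log2 fold change -0.48 ± 0.18, adjusted p = 0.216). Col9a2, the partner of Col9a3, stood at -0.40 ± 0.12 and Col7a1, the collagen of anchoring fibrils in skin, at -0.44 ± 0.13 (both adjusted p = 0.128). Col5a3 had 31.8, 42.0 and 41.3 CPM in DKO CT4 and 38.6, 29.1 and 26.1 CPM in control CT4 libraries. These groups overlapped, and its log2 fold change of 0.29 ± 0.17 did not pass (adjusted p = 0.454, 95% interval -0.03 to 0.62).

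**Figure D3:**
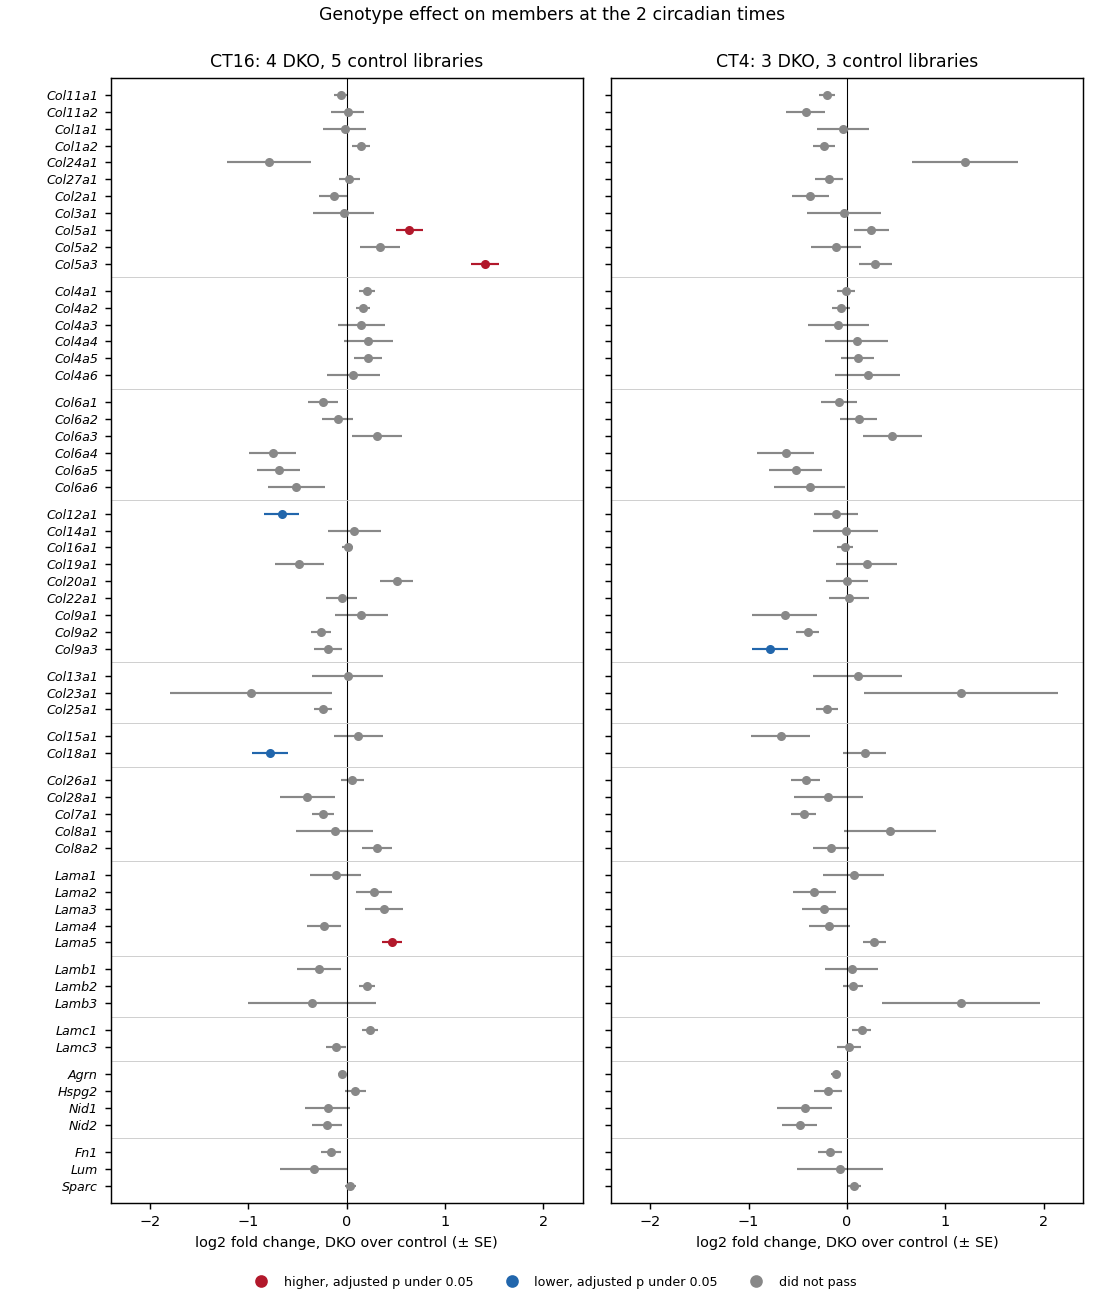
Log2 fold change of DKO over control (± SE) for 59 of the 60 members at CT16 (left) and CT4 (right), grouped by role; red and blue mark adjusted p under 0.05. Col5a3 lies at 1.41 at CT16 and at 0.29 at CT4, and the 6 collagen IV chains lie right of 0 at CT16.

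Averaged over both times, 7 members changed by genotype, 3 higher and 4 lower, beside 4.65% of all genes (2.47% higher and 2.18% lower), in a comparison that uses the same libraries as those above. Col5a3 rose by 0.85 ± 0.11 on the log2 scale (edgeR adjusted p = 0.00035), Lama5 by 0.37 ± 0.08 (0.0133) and Col5a1 by 0.44 ± 0.11 (0.033). Col9a2 fell by 0.33 ± 0.08 (0.0234), Col9a3 by 0.48 ± 0.11 (0.0248), Col7a1 by 0.34 ± 0.09 (0.032) and Col6a4 by 0.69 ± 0.19 (0.0498). Lama5 and Col5a3 passed under all 23 alternatives to this average. Col6a4 lost the call in 15 of 23, Col7a1 in 9, Col5a1 in 8, Col9a2 in 6 and Col9a3 in 4.

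The 4 members that fell over both times were Col9a2 and Col9a3, both chains of collagen IX, with Col7a1 and Col6a4. Col9a2 had 44.0, 34.2, 29.8 and 35.7 CPM in DKO CT16, 45.6, 39.5, 42.7, 40.5 and 46.6 CPM in control CT16, 34.2, 29.3 and 26.4 CPM in DKO CT4 and 37.4, 42.8 and 38.7 CPM in control CT4 libraries. The genotypes overlapped at CT16 through DKO replicate 1 and did not overlap at CT4. Col7a1 had 12.5, 11.3, 11.5 and 10.3 CPM in DKO CT16, 15.6, 12.3, 12.7, 14.8 and 12.0 CPM in control CT16, 11.5, 13.3 and 10.2 CPM in DKO CT4 and 18.6, 14.8 and 13.9 CPM in control CT4 libraries. Here too the groups overlapped at CT16 and were apart at CT4.

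Col6a4 had 5.51, 3.62, 5.56 and 2.84 CPM in DKO CT16, 4.56, 6.20, 9.15, 9.96 and 7.22 CPM in control CT16, 4.11, 4.28 and 3.54 CPM in DKO CT4 and 5.36, 5.20 and 7.92 CPM in control CT4 libraries. The values of its genotypes overlapped at CT16 but not at CT4. Col6a4, Col6a5 and Col6a6 lie side by side on chromosome 9, and over both times stood at -0.69, -0.60 and -0.44 on the log2 scale, of which the value for Col6a4 passed. Col6a5 and Col6a6 had adjusted p of 0.0671 and 0.319. Alternatives changed this order, as the Col6a4 call was lost in 15 of 23. Col6a5 passed over both times under DESeq2 (-0.60, adjusted p = 0.00263) and limma voom (-0.67, 0.0229). With edgeR it passed without DKO CT16 replicate 3, its highest DKO CT16 library (-0.74, 0.00696). It also passed without control CT16 replicate 2 (-0.66, 0.0362) and without the 3 libraries (-0.75, 0.0462). The other collagen VI chains, Col6a1, Col6a2 and Col6a3, stood at -0.16, 0.01 and 0.38.

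Whether the genotype effect differed between times was tested by the interaction, CT16 effect minus CT4 effect. It called 0 members with edgeR at the adjusted threshold, beside 0.0118% of all genes. At an unadjusted p under 0.05 there were 6, beside 15.1% of all genes. DESeq2 called 3 members (Col5a3, Col18a1 and Col24a1) and limma voom 1 (Col5a3), where they called 360 and 420 of all genes, against 2 with edgeR. The Col5a3 interaction was 1.12 ± 0.22 (edgeR adjusted p = 0.079), with adjusted p of 0.000156 under DESeq2, 0.0243 under limma voom and 0.0289 without DKO CT16 replicate 3, where 298 of all genes were called. Without the 3 libraries named above, where 423 of all genes were called, Col5a3 (0.87, adjusted p = 0.0253), Col15a1 (1.28, 0.0131) and Col6a2 (-0.72, 0.0376) passed. For Col18a1 it was -0.96 ± 0.28 (adjusted p = 0.159), for Col9a3 0.58 ± 0.23 (0.251) and for Lama5 0.18 ± 0.16 (0.619). With all libraries, edgeR therefore did not show for any of these that the genotype effect differed between times.

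Setting CT16 against CT4 within control mice shows how these genes differ between subjective night and day with the receptors present. Of the 60 members 4 changed, 0 higher and 4 lower at CT16, beside 4.21% of all genes (2.13% higher and 2.08% lower). They were Lama3, Col5a3, Nid2 and Lama5. The median log2 fold change was -0.10 over the members and -0.01 over all genes. Groups did not overlap for 13 members, 1 higher and 12 lower at CT16, beside 15.8% of all genes (7.99% higher and 7.8% lower).

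Lama3, the alpha chain of epithelial laminin, had 5.24, 5.48, 4.39, 6.20 and 8.15 CPM in control CT16 libraries against 11.6, 9.82 and 11.1 CPM in control CT4 libraries (log2 fold change -0.88 ± 0.20, edgeR adjusted p = 0.0216). Col5a3 averaged 19.2 ± 2.32 CPM at CT16 and 31.3 ± 6.49 CPM at CT4 in control mice (SD, n = 5 and 3), a fall by 0.70 ± 0.15 on the log2 scale (adjusted p = 0.0188). Without control CT4 replicate 1, its highest control library, the Col5a3 value was -0.52 (adjusted p = 0.0984). Lama5 averaged 19.7 ± 1.68 CPM at CT16 and 27.3 ± 2.78 CPM at CT4, with -0.47 ± 0.11 (adjusted p = 0.0255). For each of these genes no control CT16 library reached a control CT4 library. In DKO mice Lama3 had 7.62, 5.32, 9.50 and 8.27 CPM at CT16 and 6.98, 9.90 and 10.99 CPM at CT4, which overlapped (-0.27 ± 0.21, adjusted p = 0.518), and Lama5 had 27.4, 37.3 and 35.0 CPM at CT4 against the CT16 values above (-0.29 ± 0.12, adjusted p = 0.192). The interaction for Lama3 was 0.61 ± 0.29 (adjusted p = 0.34), so the time difference was not shown to depend on genotype.

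Nid2 had 2.98, 2.50, 2.27, 3.17 and 2.22 CPM in control CT16 libraries and 4.38, 4.15 and 3.95 CPM in control CT4 libraries, with no overlap (-0.66 ± 0.16, adjusted p = 0.0269). Its value is uncertain, since 7.9% of its exonic bases overlap 2700060E02Rik on the opposite strand, which averaged 47.6 CPM, and the strand setting of the counting is not given. That gene stood at 0.10 (adjusted p = 0.374) in the same comparison. With 3 control CT4 pools these calls are thin. Leaving out control CT4 replicate 1 or replicate 2 removed all 4, and leaving out replicate 3 kept that of Col5a3.

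Markers of the vessel wall also differed between times. Of 14 endothelial markers 2 were higher (Slc2a1 and Ly6c1) and 2 lower (Cldn5 and Kdr) at CT16 in control mice. Over all genes 2.13% were higher and 2.08% lower. Cldn5, of tight junctions, stood at -1.04 ± 0.12 (edgeR adjusted p = 0.000175) in control and -0.83 ± 0.13 (0.00291) in DKO mice. Of 13 mural markers 1 passed in control mice, Pdgfrb, at -0.53 ± 0.10 (0.00727). Of 14 leptomeningeal markers 1 passed there, Foxd1, at -0.97 ± 0.22 (0.0204). Summed over all 14 endothelial markers the level was 370 to 415 CPM in control CT16 and 334 to 358 CPM in control CT4 libraries. Slc2a1, at 111 to 209 CPM over all libraries, weighed most in this sum. Singly, 9 of the 14 were negative and 5 positive, with a median log2 fold change of -0.07. Over 13 mural markers the summed level was 194 to 220 CPM in control CT16 and 227 to 247 CPM in control CT4 libraries. Of these 13, 7 were negative and 6 positive (median -0.09). Their part in the changes of Lama3, Lama5, Nid2 and Col5a3 was not tested. With a leptomeningeal marker score as covariate, Col5a3 (-0.53, adjusted p = 0.0205), Lama3 (-0.71, 0.0483) and Lama5 (-0.32, 0.0253) passed and Nid2 did not (-0.57, 0.0954).

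In DKO mice the comparison of CT16 with CT4 called 1 member, Col1a2, which was higher at CT16, beside 1.8% of all genes (1.29% higher and 0.509% lower). Col1a2, a chain of collagen I, had 32.3, 34.8, 28.6 and 36.2 CPM in DKO CT16 libraries against 22.4, 23.1 and 24.2 CPM in DKO CT4 libraries. All CT16 values lay above all CT4 values, and the log2 fold change was 0.50 ± 0.10 (edgeR adjusted p = 0.0153). Its partner Col1a1 stood at -0.59 ± 0.25 (adjusted p = 0.219). Col1a2 in control mice had a log2 fold change of 0.12 ± 0.10 (adjusted p = 0.504), and the interaction for Col1a2 was 0.38 ± 0.14 (adjusted p = 0.22), so a difference between genotypes was not shown. The Col1a2 call in DKO was lost without DKO CT16 replicate 2 (adjusted p = 0.0564) or without any 1 of the 3 DKO CT4 libraries (0.0616 to 0.0932).

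The DKO libraries did not overlap between times for 7 members, 3 higher and 4 lower at CT16, beside 14.7% of all genes (8.32% higher and 6.38% lower). Col5a3 averaged 51.4 ± 8.58 CPM at CT16 and 38.3 ± 5.71 CPM at CT4 (SD, n = 4 and 3), with 0.42 ± 0.16 (edgeR adjusted p = 0.175). Lama1, a chain of the basement membrane beneath the pia, had 9.27, 9.14, 20.01 and 8.27 CPM in DKO CT16 libraries and 18.4, 23.1 and 30.6 CPM in DKO CT4 libraries. All DKO CT16 libraries but replicate 3 were lower than every DKO CT4 library, and the log2 fold change of -1.03 ± 0.29 did not pass (adjusted p = 0.0939). Control mice showed a fall too, with 11.6 to 15.1 CPM at CT16 and 17.0 to 29.3 CPM at CT4, without overlap. Lama1 was not called there with edgeR over all libraries. It passed there under limma voom (-0.86, adjusted p = 0.0312) and with only the compared groups fitted (-0.85, edgeR adjusted p = 0.0145). Without DKO CT16 replicate 3 it passed there as well (-0.85, edgeR adjusted p = 0.0124).

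DKO CT16 replicate 3 decided much of the comparison of times in DKO mice. Without it, calls over all genes numbered 1461, against 304 with it, and 8 members were called: Col1a2 (0.57) and Col15a1 (0.95) were higher at CT16, and Lama1 (-1.43), Lamb3 (-2.49), Col8a1 (-1.25), Col6a1 (-0.69), Col6a2 (-0.68) and Col6a3 (-1.01) were lower. Their edgeR adjusted p ran from 0.00114 for Lama1 to 0.0409 for Col8a1. Col6a1, Col6a2 and Col6a3 are the chains of the common collagen VI microfibril made by fibroblasts and mural cells. With all libraries, Col6a1 stood at -0.53 ± 0.17 (adjusted p = 0.115), with 15.7, 12.9, 20.6 and 12.9 CPM in DKO CT16 libraries and 21.7, 21.4 and 24.2 CPM in DKO CT4 libraries. Col15a1, a proteoglycan of the multiplexin family in vessel basement membranes, had 42.5, 52.3, 18.7 and 40.2 CPM in DKO CT16 libraries and 20.6, 24.5 and 25.02 CPM in DKO CT4 libraries. Replicate 3 was the only DKO CT16 library within or below the CT4 range of Col15a1. In that replicate ependyma and tanycyte markers summed to 364 CPM, against 259 to 354 CPM in the other DKO CT16 libraries, and markers of neighbouring nuclei to 956 CPM, against 516 to 742 CPM. Their part was not tested.

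**Figure D4:**
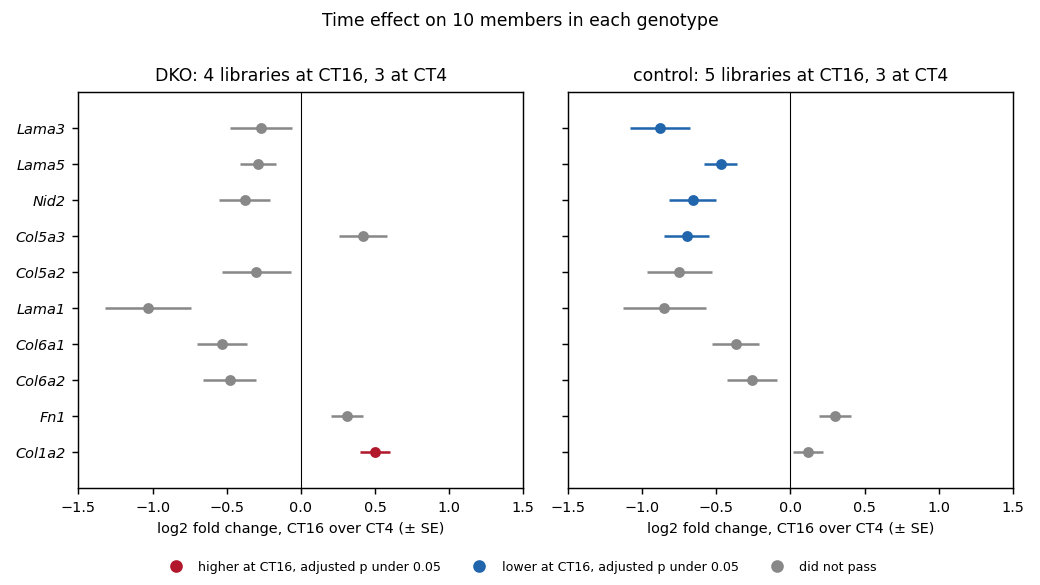
Log2 fold change of CT16 over CT4 (± SE) in DKO (left) and control (right) for 10 members: those called in either genotype and 5 others of small p or of the same families; red and blue mark adjusted p under 0.05. Col5a3 lies at 0.42 in DKO and at -0.70 in control.

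**Figure D5:**
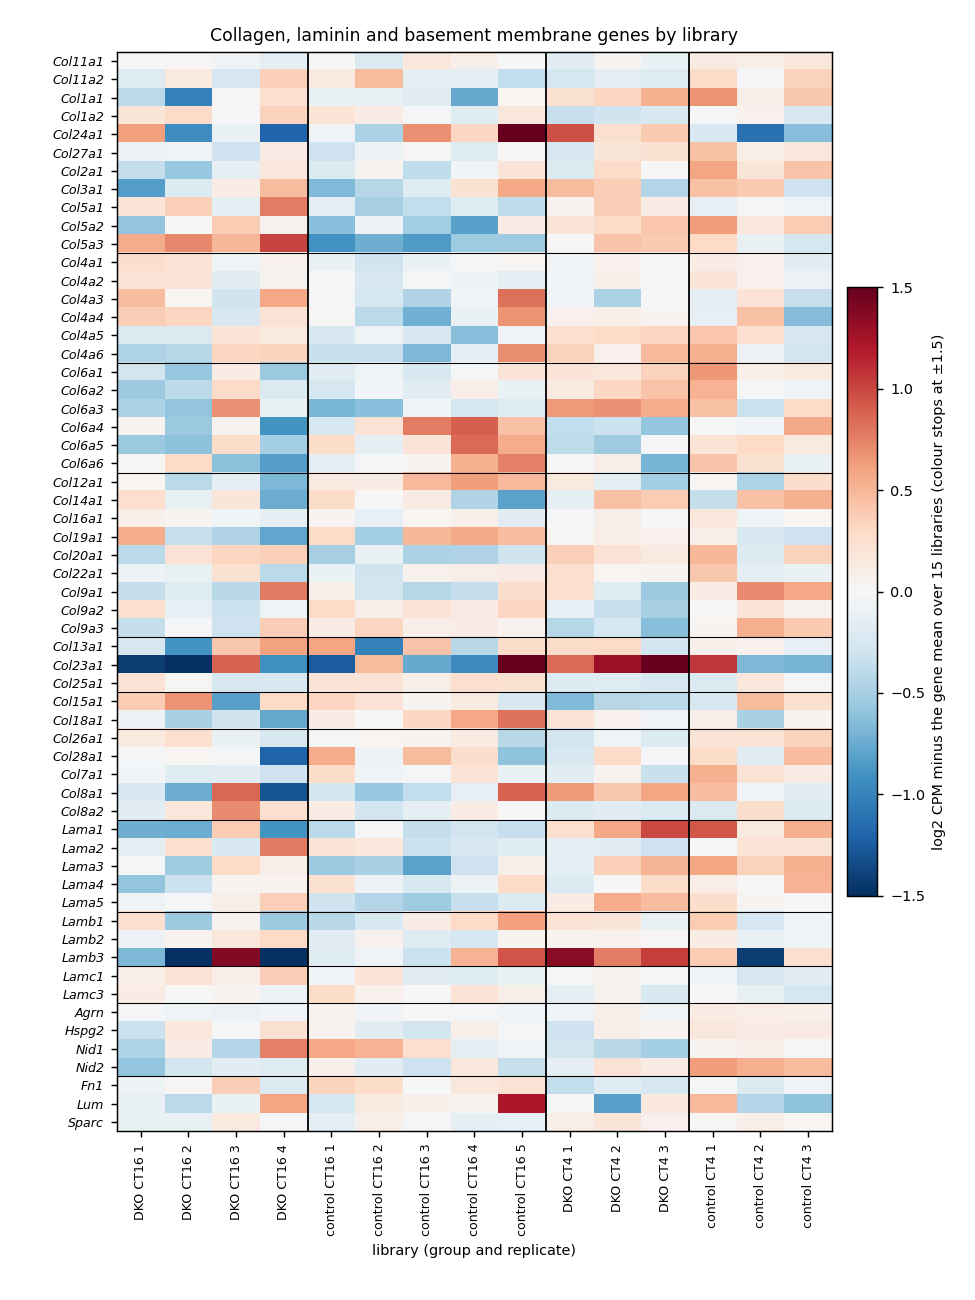
Log2 CPM of 59 of the 60 members in each library, minus the gene's mean over the 15 libraries, grouped by role, with vertical lines between groups. Col5a3 is red in DKO CT16 and blue in control CT16, and Col23a1 and Lamb3 vary within groups.

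The heatmap of members by library shows that most members did not separate the 4 groups. Of the 12 role groups, none had more than 2 members called in any comparison. Fibrillar collagens had 2 of 11 called at CT16, both of collagen V, beside 4.66% of all genes. Laminin alpha chains had 2 of 5 called for time in control mice, beside 4.21% of all genes. Both of these calls were lost without any 1 of the 3 control CT4 libraries. All 5 alpha chains were negative there (-0.88 to -0.18), as were 39 of the 60 members and 8696 of all 16910 genes. Collagen IV chains, laminin beta chains, laminin gamma chains, transmembrane collagens and the group of Fn1, Sparc and Lum had 0 called in any comparison. Fn1, fibronectin, which links integrins to matrix, stood at 0.31 ± 0.11 in DKO and 0.30 ± 0.11 in control for CT16 over CT4 (adjusted p = 0.171 and 0.137).

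Enzymes and receptors that work with these chains were counted for context. Over all genes tested at CT16, 4.66% were called, 2.83% higher and 1.83% lower. At CT16, of 28 enzymes of collagen folding, processing and crosslinking, 0 rose and 2 fell in DKO: Adamts2, which trims procollagen ends, averaged 36.7 CPM in DKO and 52.5 CPM in control (-0.51 ± 0.12, adjusted p = 0.0192), and Serpinh1, the collagen chaperone, 27.0 CPM in DKO and 32.8 CPM in control (-0.28 ± 0.08, adjusted p = 0.0477). Of 30 matrix receptors 4 rose and 1 fell. Itga7, a laminin-binding integrin chain, averaged 23.4 CPM in DKO and 14.2 CPM in control (0.72 ± 0.08, edgeR adjusted p = 6.35e-05). Lrp4, the agrin receptor, averaged 44.8 CPM in DKO and 30.2 CPM in control (0.57 ± 0.08, adjusted p = 0.00069). Itgb5 (0.64) and Sdc4 (0.33) also rose, and Itga3, another laminin receptor, fell (-0.25).

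Of 39 other matrix glycoproteins and proteoglycans, 3 rose and 4 fell in DKO at CT16, beside 2.83% and 1.83% of all genes. Npnt, nephronectin, averaged 18.1 CPM in DKO and 9.14 CPM in control (0.98 ± 0.12, edgeR adjusted p = 0.000102), and Frem2, a basement membrane protein of the Fraser complex, 12.0 CPM in DKO and 5.92 CPM in control (1.01 ± 0.16, adjusted p = 0.00114). Ntn1, the laminin-related guidance factor netrin, rose by 0.67 ± 0.07 (adjusted p = 3.38e-05). Papln, Fbln1, Thbs2 and Bgn fell by 0.53, 0.63, 0.42 and 0.58 on the log2 scale. At CT4 the called genes of the 3 lists were P3h3, Itga10 and Papln, lower in DKO, and Ntn1, higher in DKO. Of all genes 1.28% were called there.

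For time in control mice, Itga7 (-0.64 ± 0.09, edgeR adjusted p = 0.0009), Itga6 (-0.35), Lrp4 (-0.33), Ntn1 (-0.47) and Frem2 (-0.87) were lower at CT16. Serpinh1 (0.39), P4hb (0.23), P4ha2 (0.31), Sdc4 (0.58) and Tinagl1 (1.07) were higher. Over all genes 2.13% were higher and 2.08% lower in that comparison. In DKO mice, of these 97 genes only Sdc4 passed for time (0.67 ± 0.06, adjusted p = 5.12e-05), beside 1.8% of all genes. The interaction called 0 of the 97 with edgeR, beside 0.0118% of all genes.

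Markers of cell types in the punches were compared by genotype, where 4.66% of all genes were called at CT16 and 1.28% at CT4. Of 14 leptomeningeal fibroblast markers 1 passed at CT16, Cdh1, with 0.742 CPM in DKO and 0.185 CPM in control. The summed level of that list was 89.2 to 117 CPM in DKO CT16 and 87.3 to 112 CPM in control CT16 libraries. Of 13 mural and 14 endothelial markers 0 passed by genotype at either time with edgeR. Mural markers summed to 195 to 221 CPM in DKO CT16 and 194 to 220 CPM in control CT16 libraries, and endothelial markers to 363 to 417 CPM in DKO CT16 and 370 to 415 CPM in control CT16 libraries. At CT4 mural markers summed to 201 to 231 CPM in DKO and 227 to 247 CPM in control libraries. Endothelial markers at CT4 summed to 319 to 333 CPM in DKO and 334 to 358 CPM in control libraries, which did not overlap. At CT16, 2 of 12 astrocyte markers rose and 1 fell (median log2 fold change 0.23). All 12 myelin markers (median 0.72) and all 10 microglia markers (median 0.20) were positive, beside 8529 of all 16910 genes, though 0 of either list passed. DKO CT16 replicate 4 had the highest sum of both lists, at 20073 and 465 CPM. The part of all these markers in the genotype results was not tested.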

How the data were processed

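Total RNA of SCN punches was sequenced after Illumina TruSeq library preparation, per the design text. The authors deposited whole-number read counts per gene and library, not normalized. STAR, featureCounts, DESeq2 and mm10 are named in the submitters' processing notes. Versions, annotation and strand setting are not given there. Libraries were matched to groups by their labels. No pair of libraries in a group was alike within sampling noise (chi-square per degree of freedom at least 6.77).

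The analysis used edgeR 4.0.16 in R 4.3.3. The filter on low counts (filterByExpr) left 16910 genes. A fit of 4 group means to 15 libraries with TMM factors had 11 residual degrees of freedom. The robust quasi-likelihood test was applied to 6 contrasts. Calls required an adjusted p under 0.05 (Benjamini-Hochberg, over all genes). Each SE is |log2 fold change| divided by the root of F. TMM-scaled library sizes entered CPM; for log2 CPM the prior count was 2. Exonic lengths are those in the table. The members and lists were chosen with earlier results of these data known. Named are all called members, those of highest level in each role group and those of smallest p, and called genes of the other lists. Role groups, the length scale and gene pairs describe and are not tests.

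Alternatives were RLE factors, DESeq2 1.42.0, limma 3.58.1 voom with quality weights, no filter, a stricter filter, the compared groups alone, a replicate block, a leptomeningeal score as covariate, exclusion of 3 libraries, and each library left out. The steps were also run on simulated counts. These held no libraries that stand apart, so that run cannot show how reliable the calls are here. Figures used matplotlib 3.10.9. The values of 1 member are not reported here, though it was tested and is in the counts. Some members of highest level are given by group ranges. Chosen after their values were seen were the gene pairs compared as ratios, the most variable members, those called only without a library, the 3 libraries excluded together, and the motifs and promoters shown.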

Additional observations from a re-analysis of the deposited data

Results flagged for a closer look

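In groups of 4 or 5 libraries a member was listed when its highest or lowest library lay far from the others of the group (Dixon's 95% limit). Of 118 gene and group combinations 13 met it. The limit is set for about 1 in 20 when values are normally distributed. The share over all genes was not computed, so an excess among the members is not shown. The groups of 3 libraries were not tested.

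DKO CT16 replicate 3 was high in 4 members: Col23a1 at 34.8 CPM (others of the group 5.51 to 9.95), Col6a5 at 24.3 CPM (13.02 to 14.0), Lama1 at 20.01 CPM (8.27 to 9.27) and Lamb3 at 9.23 CPM (0.824 to 2.19). DKO CT16 replicate 4 was low in Col28a1 at 0.568 CPM (1.34 to 1.39) and high in Col9a1 at 2.59 CPM (1.11 to 1.31).

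Control CT16 replicate 5 was high in 5 members: Col23a1 at 85.9 CPM (others of the group 7.91 to 26.2), Col4a3 at 6.17 CPM (2.53 to 3.41), Col4a6 at 4.52 CPM (1.72 to 2.52), Col8a1 at 4.61 CPM (1.65 to 2.28) and Lum at 2.15 CPM (0.745 to 1.00). Control CT16 replicate 2 was high in Col9a3 at 33.2 CPM (27.7 to 28.8) and Lama1 at 15.1 CPM (11.6 to 12.6).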

How the results depend on the processing

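The 18 member calls gave 425 values under the alternatives: none changed direction, 323 kept the call and 102 lost it. The replicate block gave adjusted p of 0.111 for Col12a1 at CT16 (-0.64), 0.113 for Col6a4 over both times (-0.67) and 0.0763 for Nid2 in control (-0.67), which then did not pass. Same-numbered libraries deviated together at correlations of only -0.184 to 0.138 over all genes. Libraries also differed in other ways, as in myelin markers, so these correlations cannot show whether the numbers pair the samples. Members called with 1 library left out ranged from 2 to 10 for genotype at CT16, 0 to 1 at CT4, 2 to 9 over both times, 0 to 6 for time in control, 0 to 8 for time in DKO and 0 to 1 for the interaction. The fewest came without DKO CT16 replicate 2 or 4 (CT16), without DKO CT4 replicate 3 or control CT4 replicate 2 (both times) and without control CT4 replicate 1 or 2 (time in control). The most came without DKO CT16 replicate 1 (CT16), DKO CT16 replicate 3 or control CT16 replicate 2 (both times), DKO CT16 replicate 1 or 3 (time in control), and DKO CT16 replicate 3 (time in DKO and interaction). For genotype at CT4 (1 call) voom called 2, no filter 0, the compared groups alone 7, the leptomeningeal covariate 2 and excluding 3 libraries 3, with 822, 165, 828, 329 and 606 of all genes, against 217. At CT16 (5 calls) the compared groups alone gave 2, with 368 of all genes against 788. For time in control (4 calls) voom called 10 and excluding 3 libraries 2, with 1816 and 609 of all genes against 712. For time in DKO (1 call) DESeq2 called 3, voom 6, the compared groups alone 0, the covariate 2 and excluding 3 libraries 9, where all genes called numbered 874, 1310, 47, 385 and 1184, against 304. For the interaction (0 calls) DESeq2 called 3, voom 1 and excluding 3 libraries 3, with 360, 420 and 423 of all genes against 2. Causes of these differences in calls were not tested. The Col5a3 difference at CT4, with 3 pools a side, was not called.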
